A study of Mus musculus with 24 samples.

Results

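Epsins 1, 2 and 3, encoded by Epn1, Epn2 and Epn3, are endocytic adaptor proteins, and their transcripts were followed here in 24 libraries of whole mouse heart. The 3 genes were taken from the count table by symbol, out of 52724 gene rows, and all 3 were among the 16018 genes tested. Epn3 was chosen by its measured level in 1 genotype, FKl/l MHC+, in an earlier analysis of the same libraries. Its comparisons with that genotype are therefore given as a description with no test, while Epn1 and Epn2 came in as the other members of the family.

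Epsins bind the membrane lipid phosphatidylinositol 4,5-bisphosphate through an N-terminal ENTH domain, and insertion of that domain helps a clathrin-coated pit to curve. Ubiquitin-interacting motifs let them hold ubiquitinated receptors, and short motifs in their unstructured tail bind clathrin, the AP-2 adaptor and EH domain proteins such as Eps15. Epsins 1 and 2 are made in most tissues, where they act in the uptake of VEGF receptors and of Notch ligands. Epsin 3 is better known from epithelia, and its human gene has been described as a target of p53.

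The study used mice with conditional loss of FKBP12, the small FK506-binding immunophilin encoded by Fkbp1a, which associates with ryanodine receptors. Floxed Fkbp1a alleles were present without Cre in FKl/l, with Cre under the muscle creatine kinase promoter in FKl/l MCK+, and with Cre under the α-myosin heavy chain promoter in FKl/l MHC+. MHC CRE Only carried the α-myosin heavy chain Cre and no floxed allele, per its label, and no group with MCK Cre alone was among the samples. Per the series' design, the α-myosin heavy chain promoter is active earlier in development than the MCK promoter, and Cre levels also differ. Batches 1 and 2 each hold 3 libraries of every genotype, 6 in all, and a library is named by genotype, batch and number. The labels give neither age nor sex, and they do not say that the libraries came from separate animals, so a p-value here sets a difference against the spread between libraries, which may be technical. A whole heart is a mixture of cells, and fewer cells of a type cannot be told apart from less RNA per cell.

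The libraries held 27799403 to 40412640 counts over all gene rows, of which mitochondrially encoded genes took 25.7 to 36.5%. The 10 cardiomyocyte markers were present in every genotype, with a summed level of 47589 to 61503 CPM (counts scaled to a common library size with TMM factors, not per length), and none was at 0. Fkbp1a, the targeted gene, had 121 to 147 CPM in FKl/l. It had 51.1 to 81.1 CPM with MCK Cre and 43.5 to 75.7 CPM in FKl/l MHC+. In MHC CRE Only, 5 libraries held 122 to 138 CPM, but 1-3, labelled as the same genotype, held only 81.8 CPM, which goes against its label. Airway and lung epithelial markers stood out in FKl/l 1-1, at 435 CPM in sum, and in MHC CRE Only 2-3, at 1177 CPM. Several results that rest on these 3 libraries are given with and without them, but not all were recomputed.

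Epn3 (ENSMUSG00000010080) lies on the minus strand of chromosome 11 of GRCm38, from 94489599 to 94499974. Its level in FKl/l ran from 13.96 CPM through a median of 27.4 to 38.8 CPM, and in FKl/l MCK+ from 21.3 through 27.1 to 50.1 CPM. MHC CRE Only ran from 29.6 through 42.2 to 69.7 CPM. FKl/l MHC+ ran from 50.3 through 61.9 to 72.5 CPM. All 6 FKl/l MHC+ libraries thus lay above all 6 libraries of FKl/l and of FKl/l MCK+, and they overlapped MHC CRE Only through its library 1-3 alone. The closest approach was between FKl/l MCK+ 2-3, at 50.1 CPM, and FKl/l MHC+ 1-1, at 50.3 CPM. Group means were 27.4 ± 9.26 CPM in FKl/l, 30.01 ± 10.3 CPM for FKl/l MCK+, 44.3 ± 13.7 CPM for MHC CRE Only and 62.3 ± 7.97 CPM for FKl/l MHC+ (SD, n = 6 each).

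**Figure D1:**
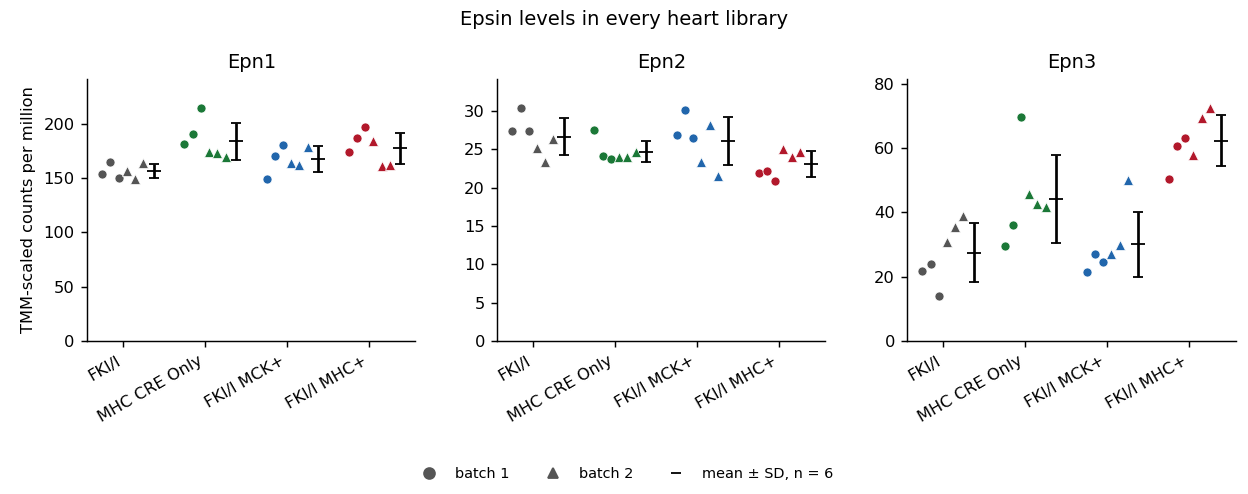
Levels of Epn1, Epn2 and Epn3 in each of the 24 libraries, in CPM on axes from 0, by genotype (circles batch 1, triangles batch 2, black bars mean ± SD of 6 libraries). Epn3 in FKl/l MHC+ sits between 50.3 and 72.5 CPM, above every FKl/l and FKl/l MCK+ library, while Epn1 and Epn2 keep overlapping ranges between FKl/l and FKl/l MHC+.

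In the fit over all genes, Epn3 in FKl/l MHC+ was 2.33-fold its level in FKl/l (log2 fold change 1.22, SE 0.211) and 2.11-fold its level in FKl/l MCK+ (log2 1.08, SE 0.210). Against MHC CRE Only it was 1.39-fold (log2 0.48, SE 0.208). These are the differences for which the gene was chosen, and they carry no test. As background, 0.649% of the genes tested had all 6 FKl/l MHC+ libraries above all 6 of FKl/l, and 0.518% had them above all 6 of FKl/l MCK+. Against FKl/l the log2 fold change was 1.58 (SE 0.315) in batch 1 alone and 0.92 (SE 0.217) in batch 2 alone. Leaving out 1 library at a time gave 1.10 to 1.30, with the lowest value without FKl/l 1-3, which had the lowest Epn3 level of all. Without the library labelled MHC CRE Only 1-3, the difference from MHC CRE Only was 0.74 (SE 0.162). The remaining 5 libraries of that genotype held 29.6 to 45.7 CPM. Their separation from FKl/l MHC+ follows from leaving out the only library that overlapped, and the share of all genes so separated was not computed. With all 6 libraries of each kept, 0.293% of genes had FKl/l MHC+ wholly above MHC CRE Only, and Epn3 was not among them. The authors' deposited tables give log2 fold changes for Epn3 of 1.26 against FKl/l, 1.12 against FKl/l MCK+ and 0.55 against MHC CRE Only.

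The 3 comparisons without FKl/l MHC+ were not those for which Epn3 was chosen. They reuse the libraries against which FKl/l MHC+ was set, so they are not free of that choice. None of them passed the threshold of 0.05 on the adjusted p by edgeR. Between FKl/l MCK+ and FKl/l, Epn3 differed by a log2 fold change of 0.14 (SE 0.210, 95% interval -0.27 to 0.56, adjusted p = 0.999, edgeR quasi-likelihood test), and by -0.02 without FKl/l MCK+ 2-3. In that comparison 0.0499% of genes were called and 5.24% had an unadjusted p under 0.05. MHC CRE Only was higher than FKl/l by 0.74 on the log2 scale (SE 0.211, 95% interval 0.33 to 1.16), a 1.67-fold difference that missed the threshold (adjusted p = 0.143 by edgeR, unadjusted p = 0.00215). DESeq2 called it (adjusted p = 0.0299) and limma voom did not (adjusted p = 0.157). The authors' deposited table lists the difference at 0.71. Their test score is 0 where the fold is small, so their p-values may answer another question and are not set beside these. In this comparison 0.0437% of genes were called by edgeR and 12.9% had an unadjusted p under 0.05. Without the library labelled MHC CRE Only 1-3 the difference was 0.50 (SE 0.161, edgeR adjusted p = 0.332). FKl/l MCK+ against MHC CRE Only stood at -0.60 (SE 0.210, 95% interval -1.01 to -0.19, edgeR adjusted p = 0.377), where 0.0999% of genes were called and 10.1% had an unadjusted p under 0.05. Without MHC CRE Only 1-3 it was -0.35 (SE 0.161, edgeR adjusted p = 0.628).

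**Figure D2:**
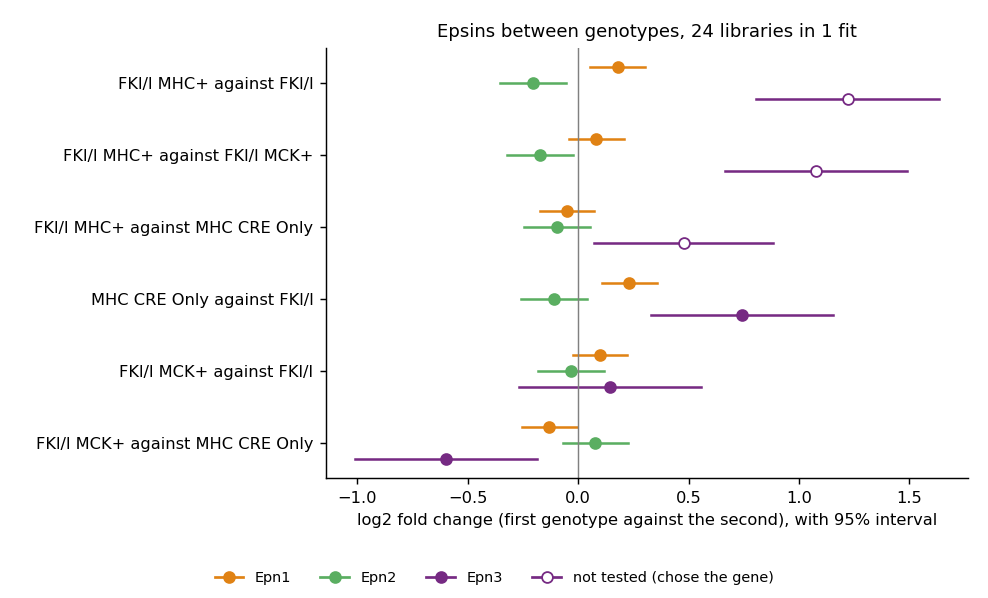
Log2 fold changes of the 3 epsins in the 6 comparisons of genotypes, with 95% intervals, from 1 fit of 24 libraries (filled points were tested, open points mark the Epn3 contrasts that chose the gene). Epn3 stands at 1.22 in FKl/l MHC+ against FKl/l, while Epn1 and Epn2 stay between -0.20 and 0.23 in all 6 comparisons.

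Epn3 was also compared between batches. In FKl/l and in FKl/l MCK+ all 3 batch 2 libraries exceeded all 3 batch 1 libraries, at 30.8 to 38.8 CPM against 13.96 to 23.9 CPM and at 27.1 to 50.1 CPM against 21.3 to 27.1 CPM. In FKl/l MHC+ 2 of the 3 batch 2 libraries did so. In MHC CRE Only the order was broken by library 1-3, which at 69.7 CPM exceeded the whole of batch 2. The share of all genes with batches separated in this way within a genotype was not computed. Across genotypes batch 2 was 1.29-fold higher (log2 0.37, SE 0.148), just short of the threshold (adjusted p = 0.0545 by edgeR). The call was made by DESeq2 (adjusted p = 0.0489), by limma voom (adjusted p = 0.0379) and, once the library labelled MHC CRE Only 1-3 was dropped, by edgeR, where the difference was 0.49 (SE 0.112, adjusted p = 0.00126). It was also made without FKl/l MCK+ 2-1, FKl/l MHC+ 2-1, MHC CRE Only 2-2 or MHC CRE Only 2-3, with edgeR adjusted p-values between 0.0452 and 0.0488. In all, 5 of the 24 fits with a single library dropped made the call. The others did not, with edgeR adjusted p-values up to 0.105. Of all genes tested, 38.4% were called between batches, 22.2% higher and 16.2% lower in batch 2, so a difference of this kind was common. The labels do not say what the batches are.

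The genotype effects on Epn3 were set against each other between batches by an interaction term. MHC CRE Only exceeded FKl/l by 1.18 (SE 0.313) on the log2 scale in batch 1 and by 0.32 (SE 0.216) in batch 2. That difference of -0.88 (SE 0.396) was not called (edgeR adjusted p = 0.191), where 5.57% of genes were. Both it and the batch 1 value include the library labelled MHC CRE Only 1-3, at 69.7 CPM, and neither was recomputed without it. For FKl/l MCK+ against FKl/l the batch difference was -0.27 (SE 0.398, edgeR adjusted p = 1.00), with 0% of genes called. For FKl/l MCK+ against MHC CRE Only it was 0.61 (SE 0.395, edgeR adjusted p = 0.383), with 3.61% called. The contrasts for which Epn3 was chosen differed between batches by -0.62 (SE 0.394) against FKl/l, -0.35 (SE 0.393) against FKl/l MCK+ and 0.26 (SE 0.390) against MHC CRE Only, given with no test.

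Epn1 (ENSMUSG00000035203), at 5080235 to 5098178 of chromosome 7 (plus strand), encodes the founding member of the family. It ran from 149.5 through a median of 155 to 165 CPM in FKl/l and from 149.3 through 168 to 180.4 CPM in FKl/l MCK+. In FKl/l MHC+ it ran from 161 through 179 to 197 CPM. In MHC CRE Only it ran from 169.7 through 178 to 215 CPM, and the 6 libraries all lay above the 6 of FKl/l, which held for 0.325% of genes. The difference of 0.23 on the log2 scale (SE 0.0635, 95% interval 0.11 to 0.36) was not called by edgeR (adjusted p = 0.123), while DESeq2 called it (adjusted p = 0.0223). The highest Epn1 level, 215 CPM, was again in the library labelled MHC CRE Only 1-3. Without it the genotype's mean was 178 ± 8.21 CPM (n = 5), and the lowest of the 5 was 169.7 CPM. Over fits with 1 library left out, the difference from FKl/l ran from 0.19 to 0.25, with edgeR adjusted p-values from 0.0921 to 0.302.

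FKl/l MHC+ differed from FKl/l in Epn1 by 0.18 (SE 0.0635, 95% interval 0.06 to 0.30, edgeR adjusted p = 0.153), and 4 of its 6 libraries lay above all of FKl/l. In this comparison 1.71% of genes were called, 1.06% higher and 0.649% lower. Against FKl/l MCK+ the Epn1 difference was 0.08 (SE 0.0635, edgeR adjusted p = 0.59), with 2.15% of genes called, 0.986% higher and 1.17% lower. Against MHC CRE Only it was -0.05 (SE 0.0634, edgeR adjusted p = 0.758), with 1.87% of genes called, 1.09% higher and 0.78% lower. FKl/l MCK+ stood 0.10 above FKl/l (SE 0.0635, edgeR adjusted p = 0.992) and at -0.13 against MHC CRE Only (SE 0.0635, edgeR adjusted p = 0.487). The 95% intervals of these 5 differences reach no further than -0.26 and 0.30.

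Epn2 (ENSMUSG00000001036), at 61517249 to 61579687 of chromosome 11 (minus strand), encodes the close relative of epsin 1. It ran from 23.3 through a median of 26.9 to 30.4 CPM in FKl/l, from 23.8 through 24.1 to 27.5 CPM in MHC CRE Only and from 21.5 through 26.7 to 30.1 CPM in FKl/l MCK+. FKl/l MHC+ ran from 20.9 through 23.1 to 25.0 CPM, the lowest median of the 4. Its 3 batch 1 libraries lay below all of FKl/l, and its 3 batch 2 libraries lay inside the range of FKl/l. The difference from FKl/l was -0.20 on the log2 scale (SE 0.0758, 95% interval -0.35 to -0.06, edgeR adjusted p = 0.18). By batch it was -0.36 in batch 1 (edgeR adjusted p = 0.0747) and -0.03 in batch 2 (edgeR adjusted p = 0.948). The difference between these values, 0.37 (SE 0.131), was not called (edgeR adjusted p = 0.225), where 0.00624% of genes were.

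Against FKl/l MCK+ the Epn2 difference of FKl/l MHC+ was -0.17 (SE 0.0759, edgeR adjusted p = 0.267), and against MHC CRE Only it was -0.09 (SE 0.0759, edgeR adjusted p = 0.594). The dependence of these on batch was 0.37 (SE 0.131, edgeR adjusted p = 0.163) and 0.23 (SE 0.131, edgeR adjusted p = 0.347), with 0.0187% and 3.07% of genes called. In the 3 comparisons without FKl/l MHC+ Epn2 lay between -0.11 and 0.08 (edgeR adjusted p from 0.569 to 0.999). Epn1 and Epn2 were not called between batches either, at -0.08 (SE 0.0449, edgeR adjusted p = 0.192) and -0.06 (SE 0.0536, edgeR adjusted p = 0.378).

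Levels of different genes were compared per kilobase of exon, with exon unions of 2.81 kb for Epn1, 5.228 kb for Epn2 and 4.067 kb for Epn3. Epn1 was the most abundant epsin in all 24 libraries, at 55.7 ± 2.41 CPM per kb in FKl/l and 63.2 ± 5.16 CPM per kb in FKl/l MHC+ (SD, n = 6). Epn3 came next in 23 of the 24 libraries, and in FKl/l 1-3 it lay below Epn2. In FKl/l the levels of Epn3, at 6.75 ± 2.28 CPM per kb, and of Epn2, at 5.10 ± 0.457 CPM per kb, overlapped. The 2 genes lay apart in FKl/l MHC+, with 15.3 ± 1.96 CPM per kb for Epn3 and 4.42 ± 0.317 CPM per kb for Epn2, and Epn3 was between 2.95 and 3.88 times Epn2.

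Of the sum of the 3 epsins per kilobase, Epn3 made up 9.89 ± 3.04% in FKl/l, 10.1 ± 2.71% in FKl/l MCK+, 13.3 ± 2.81% in MHC CRE Only and 18.5 ± 2.69% in FKl/l MHC+ (SD, n = 6). The lowest share in FKl/l MHC+ was 15.8%. FKl/l MCK+ 2-3, at 15.4%, and MHC CRE Only 1-3, at 17.5%, were the libraries of the other genotypes nearest to or within that range. Epn1 kept the larger part of the sum throughout, from 71.9% in the FKl/l MHC+ library with the most Epn3 to 86.1% in FKl/l 1-3.

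**Figure D3:**
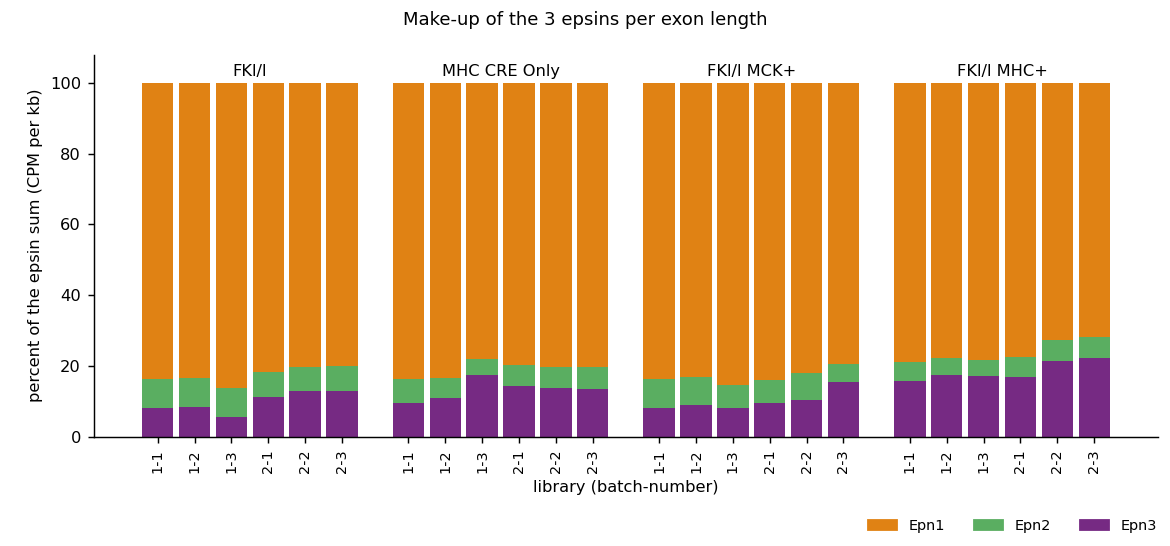
Make-up of the epsin sum per kilobase of exon in each library, in percent, with Epn3 at the bottom, Epn2 in the middle and Epn1 on top; libraries are ordered by genotype, batch and number. The Epn3 share averages 9.89% in FKl/l and 18.5% in FKl/l MHC+, and Epn1 is the largest part in all 24 bars.

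Epn3 was also read against Fkbp1a library by library. Both deletion genotypes held Fkbp1a at about the same level, at 65.1 ± 10.7 CPM for FKl/l MCK+ and 59.1 ± 12.6 CPM for FKl/l MHC+ (log2 difference -0.14, SE 0.124, edgeR adjusted p = 0.638), while Epn3 lay at 30.01 CPM in the former and 62.3 CPM in the latter. The library labelled MHC CRE Only 1-3 combined a low Fkbp1a level for its genotype, 81.8 CPM, with an Epn3 level of 69.7 CPM, inside the range of FKl/l MHC+. Among the FKl/l MCK+ libraries, the one with the least Fkbp1a, 2-3 at 51.1 CPM, had the most Epn3, at 50.1 CPM, and the one with the most Fkbp1a, 1-1 at 81.1 CPM, had the least Epn3, at 21.3 CPM. In FKl/l MHC+ the library with the most Fkbp1a, 1-1 at 75.7 CPM, likewise had the least Epn3, but the one with the least Fkbp1a, 2-1 at 43.5 CPM, had 57.9 CPM of Epn3, below 4 of the other 5. Libraries 2-3 and 1-1 of FKl/l MCK+ are of different batches. Batch 2 had more Epn3 (log2 0.37) and less Fkbp1a (log2 -0.15), neither called by edgeR. The libraries fall into separate clusters by Fkbp1a, so no correlation that keeps those clusters is given. With genotype and batch means removed, Pearson's r of log2 CPM was -0.52, a description that includes MHC CRE Only 1-3.

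**Figure D4:**
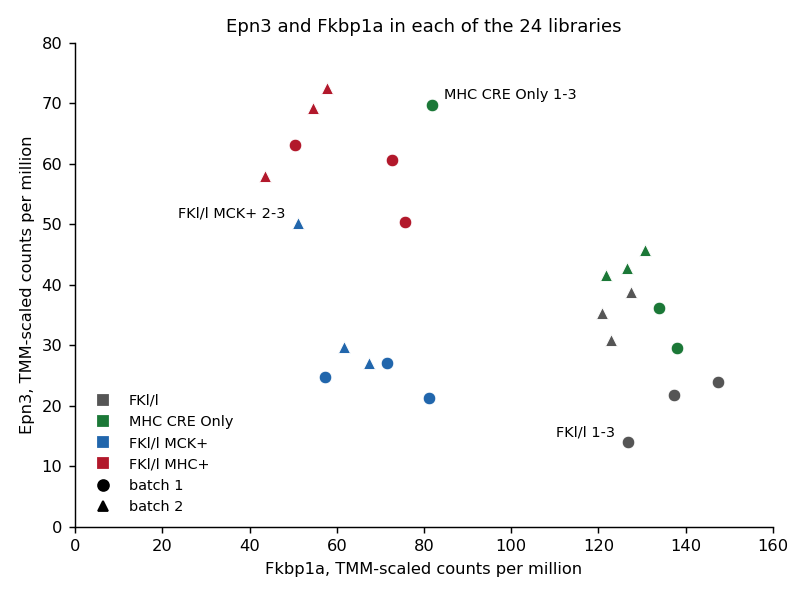
Epn3 against Fkbp1a in each library, both in CPM on axes from 0 (colours mark genotype, circles batch 1, triangles batch 2). FKl/l MHC+ and FKl/l MCK+ share the left side, at 43.5 to 81.1 CPM of Fkbp1a, and differ in height, and MHC CRE Only 1-3 lies apart from the other 5 libraries of its label.

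The proteins that work with epsins were covered by 8 lists with 70 genes, of which 69 were tested. Of these, in FKl/l MHC+ against FKl/l, 1 rose, 1 fell and 67 were not called, where 1.71% of all genes were called, 1.06% higher and 0.649% lower, and the median log2 fold change was 0.00, as over all genes. Cltb, the clathrin light chain b, rose from 91.3 ± 10.5 to 113 ± 19.5 CPM (log2 0.29, SE 0.0719, edgeR adjusted p = 0.0274), with overlapping ranges, and 7 of the 24 fits with a single library dropped lost the call (adjusted p up to 0.0958). Amph, encoding the membrane-bending protein amphiphysin, fell from 2.25 ± 0.716 to 1.13 ± 0.151 CPM (log2 -0.96, SE 0.189, edgeR adjusted p = 0.0049). Each of its FKl/l MHC+ libraries, at 0.965 to 1.39 CPM, lay below each FKl/l library, at 1.49 to 3.05 CPM, which held for 0.468% of genes. The AP-2 subunits (5 genes), the other ENTH and ANTH domain proteins (6 genes), the EH domain scaffolds and pioneers (11 genes) and the cargo adaptors (12 genes) had no called member in this comparison.

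The 5 reference genes of the pathway were not called in FKl/l MHC+ against FKl/l. Cltc, the clathrin heavy chain, stood at 85.0 ± 12.7 CPM in FKl/l and 89.8 ± 12.5 CPM in FKl/l MHC+ (log2 0.08, SE 0.0706, edgeR adjusted p = 0.616). Ap2a1, the large α subunit of AP-2, differed by 0.09 (SE 0.0635, edgeR adjusted p = 0.508) and Clint1, the epsin-related protein of the trans-Golgi, by 0.11 (SE 0.0934, edgeR adjusted p = 0.61). Picalm, an ANTH domain protein that sorts SNAREs into coated pits, differed by 0.20 (SE 0.0764, edgeR adjusted p = 0.186). Hip1r, which links coats to actin, differed by -0.20 (SE 0.0753, edgeR adjusted p = 0.176).

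Against MHC CRE Only, 3 of the 69 genes rose and none fell, with a median of -0.04 beside -0.02 for all genes, of which 1.09% were called higher and 0.78% lower. Among them were Pacsin3, a membrane-bending F-BAR protein of muscle (log2 0.23, SE 0.0580, edgeR adjusted p = 0.0336), and Synj1, the phosphoinositide phosphatase synaptojanin 1 (log2 0.28, SE 0.0707, edgeR adjusted p = 0.0336). Dropping a single library ended these calls in 7 and 8 of 24 fits, with adjusted p-values up to 0.0913 and 0.0914. Without the 3 libraries that stand apart neither was called, with Pacsin3 at 0.18 (adjusted p = 0.141) and Synj1 at 0.26 (adjusted p = 0.102). Against FKl/l MCK+, where 2.15% of all genes were called, Cltb rose (log2 0.26, SE 0.0720, edgeR adjusted p = 0.0475, lost in 18 of those fits), Amph fell (log2 -0.97, SE 0.190, edgeR adjusted p = 0.00593, lost in none), and Dnm3, a dynamin, fell (log2 -0.54, SE 0.136, edgeR adjusted p = 0.0311, lost in 8). Dnm3 was named because the count was small. In FKl/l MCK+ against FKl/l, MHC CRE Only against FKl/l and FKl/l MCK+ against MHC CRE Only, edgeR called 0 of the 69. At an unadjusted p under 0.05 were 6, 14 and 11 of them, beside 5.24%, 12.9% and 10.1% of all genes. DESeq2 called 0, 2 and 0 of the 69 and limma voom 0 in each. Between batches 19 of the 69 were higher and 7 lower, a share near that of all genes, of which 22.2% were higher and 16.2% lower.

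**Figure D5:**
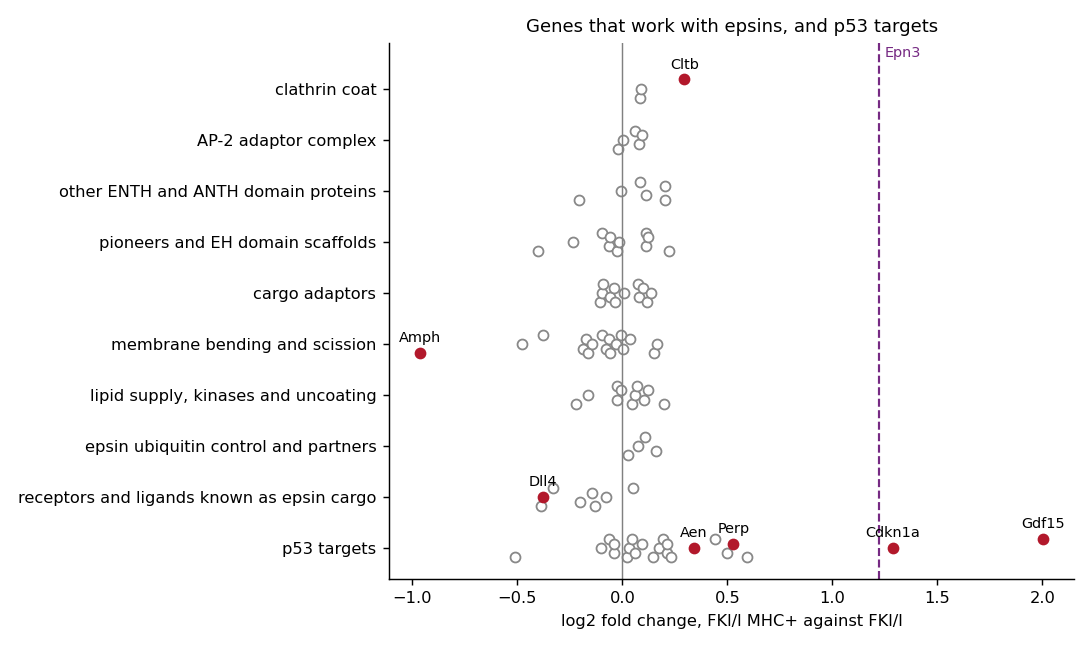
Log2 fold changes in FKl/l MHC+ against FKl/l of the tested genes of the 8 endocytosis lists, of receptors and ligands carried by epsins and of p53 targets; each point is a gene, and filled points with names were called at an adjusted p under 0.05. The dashed line marks Epn3 at 1.22, and most endocytosis genes lie close to 0.

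Receptors and ligands known as epsin cargo formed a list of 8 genes. Between FKl/l MHC+ and FKl/l, 1 fell and none rose, with a median of -0.17 beside -0.00 for all genes, of which 0.649% were called lower. It was Dll4, a Notch ligand of endothelium, at 18.5 ± 3.23 against 24.01 ± 1.23 CPM (log2 -0.38, SE 0.0928, edgeR adjusted p = 0.0276). The call was lost without any of the FKl/l MHC+ libraries 1-2 and 1-3 or the FKl/l libraries 1-1 and 1-2, with adjusted p-values up to 0.0988. Against FKl/l MCK+ Dll4 (log2 -0.43, SE 0.0929, edgeR adjusted p = 0.0111) and Kdr, the VEGF receptor 2 (log2 -0.32, SE 0.0736, edgeR adjusted p = 0.0188), fell, with a list median of -0.29 beside -0.01 for all genes, of which 1.17% were called lower. Kdr lost its call without any of the FKl/l MCK+ libraries 1-1 and 1-3 or the FKl/l MHC+ libraries 1-3 and 2-3, with adjusted p-values up to 0.0603. Against MHC CRE Only edgeR called 0 of the 8, with 2 at an unadjusted p under 0.05 (15.8% of all genes), DESeq2 1 and limma voom 0. In the 3 comparisons without FKl/l MHC+ all 3 tools called 0 of the 8, and 0, 0 and 1 had an edgeR unadjusted p under 0.05 in FKl/l MCK+ against FKl/l, MHC CRE Only against FKl/l and FKl/l MCK+ against MHC CRE Only. Of all genes, 5.24%, 12.9% and 10.1% had such a p. The 10 endothelial markers, which include Kdr, summed to 634 to 806 CPM for FKl/l MHC+ and 704 to 947 CPM for FKl/l. They summed to 750 to 877 CPM for MHC CRE Only and 799 to 1041 CPM for FKl/l MCK+, and none was at 0. All 10 had negative log2 fold changes in FKl/l MHC+ against each other genotype. Against FKl/l MCK+ edgeR called 7 lower, Kdr among them (median -0.34). Against FKl/l (median -0.20) and MHC CRE Only (median -0.19) it called 1 lower in each. Of all genes, 1.17%, 0.649% and 0.78% were called lower in these comparisons. The part of these markers in the levels of Dll4 and Kdr was not tested.

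Targets of p53 were followed because the human EPN3 gene has been counted among them, and 23 of 24 listed genes were tested. From FKl/l to FKl/l MHC+, 4 rose and none fell, with a median of 0.17 beside -0.00 for all genes, of which 1.06% were called higher. The median was 0.18 in MHC CRE Only against FKl/l, with 16 of 23 positive and none called. Cdkn1a, which encodes the cyclin-dependent kinase inhibitor p21, had 36.3 ± 6.62 CPM in FKl/l and rose to 87.9 ± 23.3 CPM (log2 1.29, SE 0.179, edgeR adjusted p = 0.000382). Its lowest FKl/l MHC+ library, at 50.8 CPM, lay above the highest FKl/l library, at 45.6 CPM, a separation that 0.649% of genes had. Perp, a desmosomal p53 effector, rose from 92.1 ± 13.0 to 133 ± 8.17 CPM (log2 0.53, SE 0.0841, edgeR adjusted p = 0.000566). Aen, an apoptosis-enhancing nuclease, rose by 0.34 (SE 0.0761, edgeR adjusted p = 0.0147), a call lost without FKl/l MHC+ 2-3 (adjusted p = 0.0563). Gdf15, a stress cytokine named because the count was small, rose by 2.00 (SE 0.482, edgeR adjusted p = 0.035), a call that 6 of 24 such fits did not make.

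The other 19 targets were not called in FKl/l MHC+ against FKl/l, among them Mdm2, the p53 ubiquitin ligase, at 0.06 (SE 0.0996), and Bax, at 0.02 (SE 0.0916). Against MHC CRE Only, where 1.09% of all genes were called higher, Cdkn1a (log2 0.89, SE 0.177, edgeR adjusted p = 0.0122), Perp (log2 0.33, SE 0.0840, edgeR adjusted p = 0.0359) and the death receptor gene Fas (log2 0.34, SE 0.0873, edgeR adjusted p = 0.0363) rose. With a single library dropped, the Cdkn1a call held in 24 of 24 fits, and those of Perp and Fas failed in 7 and 9. Against FKl/l MCK+, where 0.986% of all genes were called higher, 5 rose, namely Cdkn1a (log2 1.06), Phlda3 (log2 0.80), Perp (log2 0.35), Aen (log2 0.31) and Gdf15 (log2 2.16), with edgeR adjusted p-values from 0.0031 to 0.0401. With a single library dropped, those calls failed in 0, 10, 4, 4 and 3 of 24 fits. In the 3 comparisons without FKl/l MHC+ edgeR called 0 of the 23. In FKl/l MCK+ against FKl/l 1 had an unadjusted p under 0.05 (5.24% of all genes), in MHC CRE Only against FKl/l 7 (12.9%), and in FKl/l MCK+ against MHC CRE Only 5 (10.1%), where DESeq2 called 0, 1 and 0 and limma voom 0 in each.

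Likeness to Epn3 was measured by Pearson's r of log2 CPM over the 24 libraries with batch means removed, among 9428 genes. The genes share libraries and depth, and r is given as a description. Among the 10 genes most like Epn3 were the hexokinase gene Hk1 (r = 0.90), the kinesin gene Kifc3 (0.90), the fucosidase gene Fuca2 (0.89) and the amino acid transporter gene Slc38a1 (0.89). Jpt1 (0.87), Flnc, which encodes filamin C (0.87), the collagen receptor gene Ddr1 (0.87), Pcbp4 (0.87) and the tubulin gene Tuba1c (0.86) were also among them. These 9 genes kept an r of at least 0.80 without FKl/l 1-3 and MHC CRE Only 1-3, the libraries farthest from the median of Epn3. Such an r keeps the genotype differences for which Epn3 was chosen. With genotype means also removed, the 9 ran from 0.60 (Ddr1) to 0.87 (Fuca2).

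The lowest r belonged to Bckdha, a subunit of the branched-chain ketoacid dehydrogenase (r = -0.87), Dmd, encoding dystrophin (-0.86), Aldh2 (-0.86), Cdh23 (-0.83) and Rhbdl3 (-0.82). Removing genotype means as well left them between -0.86 (Aldh2) and -0.34 (Rhbdl3). Bckdha ran at 182 ± 22.04 CPM in FKl/l and 130 ± 4.50 CPM in FKl/l MHC+. Within the family, Epn1 had r = 0.73 and Epn2 r = -0.66 with Epn3. With genotype means also removed these were 0.62 and -0.31.

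The protein-coding neighbours of Epn3 on chromosome 11 did not pass the test in any comparison of genotypes. Mycbpap lies 1373 bp away on the side of higher coordinates, followed by Rsad1 and Acsf2. Spata20 lies 3420 bp away on the other side, followed by Cacna1g, a T-type calcium channel gene, and Abcc3. In FKl/l MHC+ against FKl/l their log2 fold changes were 0.68 (SE 0.351) for Mycbpap, -0.06 (SE 0.116) for Rsad1, 0.10 (SE 0.0819) for Acsf2, 0.36 (SE 0.302) for Spata20, 0.25 (SE 0.139) for Cacna1g and -0.10 (SE 0.198) for Abcc3 (edgeR adjusted p from 0.366 to 0.85). Mycbpap and Spata20 were sparse, with 9 to 70 counts in a library.

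Because epsin 3 is known from epithelia, epithelial markers were read beside it. The 12 general epithelial markers summed to 10.9 to 14.6 CPM for FKl/l MHC+, 5.66 to 9.79 CPM for FKl/l MCK+ and 4.32 to 92.5 CPM for MHC CRE Only. In FKl/l they summed to 4.62 to 6.93 CPM, apart from 35.5 CPM in FKl/l 1-1. All 6 FKl/l MHC+ libraries were thus above FKl/l MCK+ and above 5 of the 6 FKl/l libraries, but not above MHC CRE Only, whose median was 11.97 CPM beside 12.4 CPM and whose mean was 23.3 CPM beside 12.5 CPM. None of the 12 was at 0 in a whole genotype. Of the 7 that could be tested, 1 had a positive log2 fold change in FKl/l MHC+ against FKl/l (median -0.45) and 1 against MHC CRE Only (median -1.40). None was called by edgeR, with 1 and 5 at an unadjusted p under 0.05, beside 14.7% and 15.8% of all genes. These fold changes include FKl/l 1-1 and MHC CRE Only 2-3 and were not recomputed without them. Krt18, a keratin, made the largest contribution in FKl/l MHC+, at 7.16 ± 2.06 CPM against 2.56 ± 1.58 CPM in FKl/l, and was not called (edgeR adjusted p = 0.117). In the libraries with the highest sums, FKl/l 1-1 and MHC CRE Only 2-3, Epn3 had 21.8 and 41.7 CPM, the middle value of batch 1 of FKl/l and the lowest of batch 2 of MHC CRE Only. The library labelled MHC CRE Only 1-3, with an epithelial sum of 6.74 CPM and an airway sum of 1.81 CPM, had the highest Epn3 level of its genotype. Skeletal muscle markers also differed, at 40.8 to 88.6 CPM in FKl/l MHC+ and 25.0 to 44.9 CPM in FKl/l. Of 6 tested markers 4 were called higher, where 1.06% of all genes were. Against MHC CRE Only 2 of the 6 were called higher in FKl/l MHC+, and against FKl/l MCK+ 3 were. Of all genes, 1.09% and 0.986% were called higher in these comparisons. The skeletal muscle sum was 37.7 to 53.5 CPM in MHC CRE Only and 29.9 to 42.7 CPM in FKl/l MCK+. All 6 tested markers were positive in MHC CRE Only against FKl/l (median 0.64), and none was called by edgeR. An unadjusted p under 0.05 was found for 3 of them, beside 12.9% of all genes. Myh4 was at 0 throughout FKl/l MHC+ and MHC CRE Only. The part of these cell types in the Epn3 level was not tested.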

How the data were processed

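RNA of whole mouse heart was sequenced in 24 libraries made with a directional kit, per the labels' protocols. The authors deposited 1 table of whole-number counts per gene and 5 tables of their own comparisons. Per the submitters' processing notes the build was mm10 and the tools included STAR and RSEM, beside bcl2fastq 2.17, Trim Galore and FastQC. Their roles, the annotation, the strand setting and whether RSEM estimates were rounded were not given in the sources used here. RSEM can split a read among genes it fits equally well. Per the file headers, the authors' deposited comparison tables hold log2 fold changes, a mean log2 expression, a test score and p-values. Rows named by a transcript (3660, 0.873 to 4.28% of a library's counts) were left out.

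The deposited counts were tested with edgeR 4.0.16 in R 4.3.3 (limma 3.58.1). The quasi-likelihood F-test was 2-sided and robust, with TMM factors, filterByExpr by genotype, and 24 libraries in 1 fit with terms for genotype and batch. P-values were adjusted by Benjamini-Hochberg over the 16018 genes tested, and a gene was called under 0.05. Replicate libraries of a genotype differed by more than counting noise, with a chi-square per degree of freedom of 7.87 or more. CPM are TMM-scaled, and lengths and positions come from GENCODE M21 on GRCm38, the build named mm10. DESeq2 1.42.0 and limma voom were alternatives, with other normalizations, filters, batch terms and left-out libraries. The procedure was also tested on simulated data. No sequences are shown.

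The members and gene lists were chosen with earlier results of these data known. Named were the 3 epsins, Fkbp1a, up to 3 called members of each pathway list with the smallest adjusted p in FKl/l MHC+ against FKl/l and against MHC CRE Only, 5 reference genes of the pathway, the 10 genes most and 5 least like Epn3 (from a mean of 5 CPM upwards), and 3 neighbours on each side. Dnm3, Kdr, Gdf15, Phlda3, Mdm2, Bax, Krt18 and Myh4 were named after their values were seen. Some genes that the rule names are not reported here.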

Additional observations from a re-analysis of the deposited data

Results flagged for a closer look

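In 14 of 68 sets of 6 libraries tested, the highest or lowest library lay far from the other 5 by Dixon's criterion, which chance alone meets in about 1 in 20 sets. Many of the sets share libraries and are not independent.

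Among the epsins, Epn2 was 27.5 CPM in MHC CRE Only 1-1, against 23.8 to 24.7 CPM in the other 5 libraries of that genotype. Epn3 was 50.1 CPM in FKl/l MCK+ 2-3, against 21.3 to 29.7 CPM in the other 5, and the Epn3 share of the epsin sum there was 15.4%, against 8.06 to 10.4%. Without that library the FKl/l MCK+ mean of Epn3 was 26.0 ± 3.18 CPM (n = 5). Fkbp1a was 81.8 CPM in the library labelled MHC CRE Only 1-3, against 122 to 138 CPM in the other 5.

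The other sets were summed marker levels. Airway and lung epithelial markers reached 435 CPM in FKl/l 1-1. They reached 1177 CPM in MHC CRE Only 2-3. Their sum in FKl/l MCK+ 1-2 was 31.7 CPM. The general epithelial markers reached 35.5 CPM, 92.5 CPM and 9.79 CPM in the same libraries. Mesothelial and epicardial markers were high in FKl/l 1-1, at 23.1 CPM, and in FKl/l MCK+ 1-2, at 17.7 CPM. Smooth muscle and pericyte markers summed to 1327 CPM in MHC CRE Only 2-3, and skeletal muscle markers to 53.5 CPM in MHC CRE Only 1-3. Epn3 in FKl/l MCK+ 1-2 was 27.1 CPM, within the range of its genotype.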

How the results depend on the processing

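Over 2004 recomputed values of 80 results, 1780 counted as the same, 10 changed sign, 145 lost a call, 10 gained one and 59 moved. A tested value was the same if it kept its sign and its side of the threshold, or had no adjusted p. Epn3 contrasts with FKl/l MHC+ had no threshold. They were the same if the sign held and the shift was under 0.343, the SD of Epn3 around genotype-by-batch means. Counts of called genes were the same within a set ratio. None of the 10 that changed sign was called in either direction. In batch 2 alone Epn2 was 0.011 in FKl/l MHC+ against FKl/l MCK+, 0.0031 against MHC CRE Only and -0.0084 in FKl/l MCK+ against MHC CRE Only. With DESeq2 and with its size factors in edgeR, the batch dependence of Epn1 in FKl/l MHC+ against MHC CRE Only was -0.0022 in each, and that of Epn2 in FKl/l MCK+ against FKl/l 0.0015 and 0.0010. Leaving out 1 library gave -0.075 to 0.014 for Epn2 (positive without FKl/l MCK+ 2-3 or FKl/l 1-2) and -0.020 to 0.23 for Epn3 (negative without FKl/l MCK+ 2-3) in FKl/l MCK+ against FKl/l. DESeq2 called Epn3 (0.73) and Epn1 (0.23) in MHC CRE Only against FKl/l. Epn3 between batches was called by DESeq2 (0.35), limma voom (0.38) and without the 3 libraries that stand apart (0.50), and single left-out libraries gave 0.29 to 0.49. Epn3 in FKl/l MHC+ against FKl/l was 1.58 in batch 1 alone. Counts of endocytosis genes called moved most. Without a batch term they were 1 against FKl/l, 1 against FKl/l MCK+ and 0 against MHC CRE Only, the last also 6 by DESeq2, 0 with the replicate block and 1 without the 3 libraries, and MHC CRE Only against FKl/l was 2 by DESeq2. Leaving out 1 library gave 1 to 2, 1 to 4 and 0 to 5. For the lists this setting was chosen after seeing the data. Cargo genes called were 0 against FKl/l and 1 against FKl/l MCK+ without a batch term and 1 against MHC CRE Only by DESeq2, with 0 to 1, 1 to 3 and 0 to 1 when 1 library was left out. Targets of p53 called were 3 against FKl/l MCK+ and 1 against MHC CRE Only without a batch term, 2 against FKl/l MCK+ with the replicate block and 1 in MHC CRE Only against FKl/l by DESeq2. Leaving out 1 library gave 2 to 5 against FKl/l, 1 to 5 against FKl/l MCK+ and 1 to 3 against MHC CRE Only. The cause was not tested. Libraries of the same number did not pair. Of 36 same-numbered pairs, 3 had a correlation of residuals over 0.1, from -0.24 to 0.16, and with the number as a replicate block Epn3 was 1.21 in FKl/l MHC+ against FKl/l. Depth limits little here, since the epsins had at least 605 counts in each library.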
